A study of Mus musculus with 12 samples.

Results

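The Hippo pathway genes described here are Yap1, Wwtr1, Tead1, Tead2, Tead4, Lats1, Lats2, Amot, Amotl2 and Nf2, measured in mouse blastocysts. They were chosen by name, and every probe set (a group of array probes for a transcript) that the platform's annotation pairs with exactly 1 of them was taken. This gave 26 of the 45037 probe sets on the arrays, from all 10 genes, among 18193 genes that have a probe set naming them alone. A further probe set, 1421055_at, was left out because it names both Lats2 and Xpo4. Of the 26 probe sets, 24 passed a minimum mean signal of 100 across 12 arrays and were tested. The remaining pair, Lats2 1419679_at and Nf2 1451829_a_at, had mean signals of 12.7 and 50.1 and were not tested.

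Hippo signalling is a kinase cascade in which LATS1 and LATS2 phosphorylate the coactivators YAP1 and TAZ (encoded by Wwtr1) and keep them out of the nucleus. Without that phosphorylation the coactivators enter the nucleus and activate genes through TEAD transcription factors. In the mouse blastocyst this step is known for separating the outer trophectoderm, where nuclear YAP1 and TEAD4 support Cdx2, from the inner cell mass, where angiomotin (Amot), Amotl2 and merlin (Nf2) help LATS act on YAP1. The arrays measure transcripts, so phosphorylation and location of these proteins were not measured.

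The study compared 3 groups of 4 arrays. The control group was labelled as normal blastocysts, a second group as blastocysts treated by 20 pulses, and the third as blastocysts cultured in Ca-free medium. The series title refers to Ca2+ oscillations at fertilisation, and the comparisons address transcript levels after each treatment. The arrays do not measure Ca2+. No source used here gives the strain, the age of the embryos, the form of a pulse, the time in Ca-free medium or the number of embryos behind an array. The labels do not say whether replicates were separate collections, so p-values reflect just the spread among these arrays, which may be technical. In whole blastocysts, fewer cells of a type and less RNA per cell cannot be told apart.

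Several array-wide measures moved with the groups and bear on all values below. On the signal scale used here, where each array has a trimmed mean of 500, the median signal was 128 to 131 on Ca-free arrays and 165 to 177 on control arrays. Compared with control, Ca-free arrays also had a lower Gapdh 3' to 5' ratio (log2 difference -0.88) and a higher signal of the 5' 18S rRNA probe set (1.72) and of the hybridization controls (0.21), each with exact two-sided permutation p = 0.0286, the smallest 4 against 4 arrays can give. After 20 pulses the 5' 18S signal was 1.08 higher (exact permutation p = 0.0286), with 11.23 and 11.32 on controls 1 and 2, 9.78 and 9.79 on controls 3 and 4, and 11.37 to 11.85 on pulse arrays. The middle 18S probe set differed there by -0.02 (exact permutation p = 0.743) and the 3' one by 0.24 (p = 0.0857). Controls 1 and 2 stood apart from controls 3 and 4, with Actb 3' to 5' log2 ratios of 0.67 and 0.74 against 1.43 and 1.40. Markers of all 3 blastocyst lineages were present, with summed signals over 6 genes each of 37130 to 41750 for trophectoderm, 18480 to 22760 for epiblast and 14170 to 16940 for primitive endoderm over the 12 arrays. Bright genes dominate these sums, which can hide changes of single markers. Some of them split Ca-free arrays 1 and 4 from arrays 2 and 3. On Ca-free arrays 1 to 4, Klf4 read 2300, 4260, 4250 and 2300, and Sox2 read 2690, 3670, 3710 and 2430. Sox17 went the other way, with 902, 412, 446 and 876. Others, such as Krt8 (13300, 13800, 12800 and 14200), did not split so. In Ca-free medium against control, 1 trophectoderm marker was lower and 1 higher, 1 epiblast marker was higher and 1 primitive endoderm marker was lower. After 20 pulses the primitive endoderm marker Sox17 was higher than in controls (log2 change 1.00, limma adjusted p = 0.0269). Markers of oviduct and uterine epithelium were dim, and their summed signal was 649 to 815 on Ca-free arrays, 979 to 1242 after 20 pulses and 1240 to 1410 in controls, with all 5 tested of 6 lower in Ca-free medium. For cumulus and granulosa cells the sums were 261 to 408 on Ca-free arrays, 466 to 718 after 20 pulses and 639 to 908 in controls, with both tested genes lower in Ca-free medium. Lower calls were common at the signals of these oviduct, uterine, cumulus and granulosa markers. Among all tested probe sets of similar signal, 26.4% to 46% were lower in Ca-free medium against control, with median log2 changes of -0.39 to -0.24. The tested markers themselves changed by -1.31 (Inhba) to -0.53 (Pax8), each a larger fall than these medians. Blood markers summed to 528 to 575 on Ca-free arrays, 730 to 893 after 20 pulses and 605 to 878 in controls. Of their 3 tested genes, 0 were called in Ca-free medium against control. Against 20 pulses, Hba-a1 (-0.52, limma adjusted p = 0.0146), Cd68 (-0.31, adjusted p = 0.0370) and Lyz2 (-0.71, adjusted p = 0.0392) were all lower in Ca-free medium. The part of these array-wide and marker differences in the results was not tested.

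Because TEAD factors bind the element GGAATG and are themselves among these genes, the members' promoters were searched for it on both strands, as GGAATG or CATTCC. The window ran from 250 bases before to 50 after each RefSeq start (GRCm38.p6), and 14.7% of 32851 such promoters held the element. The RefSeq table held 11 promoters of 8 members and has no entry for Tead1 and Tead4. A match lay in 5 of the 11 promoters, from 4 genes. The 30 bases around each match are shown 5' to 3' on the gene's strand, with the element in capitals.
Amotl2: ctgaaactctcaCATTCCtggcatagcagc
Lats2: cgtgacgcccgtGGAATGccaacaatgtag
Wwtr1: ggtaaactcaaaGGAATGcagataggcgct
Yap1: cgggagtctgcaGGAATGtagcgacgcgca
They lie at chr9:102717727-102717756 on the plus strand for Amotl2, chr14:57746102-57746131 on the minus strand for Lats2, chr3:57576029-57576058 on the minus strand for Wwtr1 and chr9:8004720-8004749 on the minus strand for Yap1. Relative to the annotated start the element began at -65 for Amotl2, 4 for Lats2 and -141 for Yap1, and the Wwtr1 match fell in the windows of a pair of starts, at -136 and -170. A match is a description of the sequence and shows no binding. Of these 4 genes, Wwtr1 alone had a probe set called in Ca-free medium against control on the trimmed-mean scale, and none had one called after 20 pulses. Of the genes with a promoter and no match, Lats1, Amot and Nf2 also had a probe set called lower in Ca-free medium, and Tead2 had none.

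In Ca-free medium, transcripts of 6 of the 10 genes had a probe set that was lower than in controls: Wwtr1, Tead1, Tead4, Lats1, Amot and Nf2. No member was called higher. Yap1, Tead2, Lats2 and Amotl2 had no probe set that passed (limma, Benjamini-Hochberg adjusted p under 0.05 over all 27808 probe sets tested). The count of 6 genes takes a call at any probe set of a gene. When just the probe set with the highest mean signal stood for its gene, Wwtr1 alone was lower among the members. Read that way, 28.8% of all 13599 genes were lower. The 6 lower probe sets were 25% of the 24 tested, while 29.7% of all tested probe sets were lower and 10.6% higher, so the members' share of lower calls was close to the background. Their median log2 change was -0.04, against -0.18 over all probe sets. The arrays of both groups did not overlap for 6 members (25%), all lower, compared with 36.2% of all probe sets.

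Each of the 6 genes with a lower probe set also had at least 1 that did not pass, so each call is given for its probe set. A probe set that did not pass is not thereby shown to differ from one that did. The scale also mattered. Over all probe sets, 9.81% were higher and 9.96% lower after quantile normalization, 36.8% and 5.52% after scaling to the array median, and 2.78% and 49.1% after scaling to the hybridization controls, with the median of all changes at -0.02, 0.19 and -0.36. Members went with it, with 1 higher and 3 lower after quantile normalization, 10 and 1 after median scaling, and 0 and 10 after scaling to the hybridization controls. The Amot probe set 1425907_s_at was lower in all 4.

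**Figure D1:**
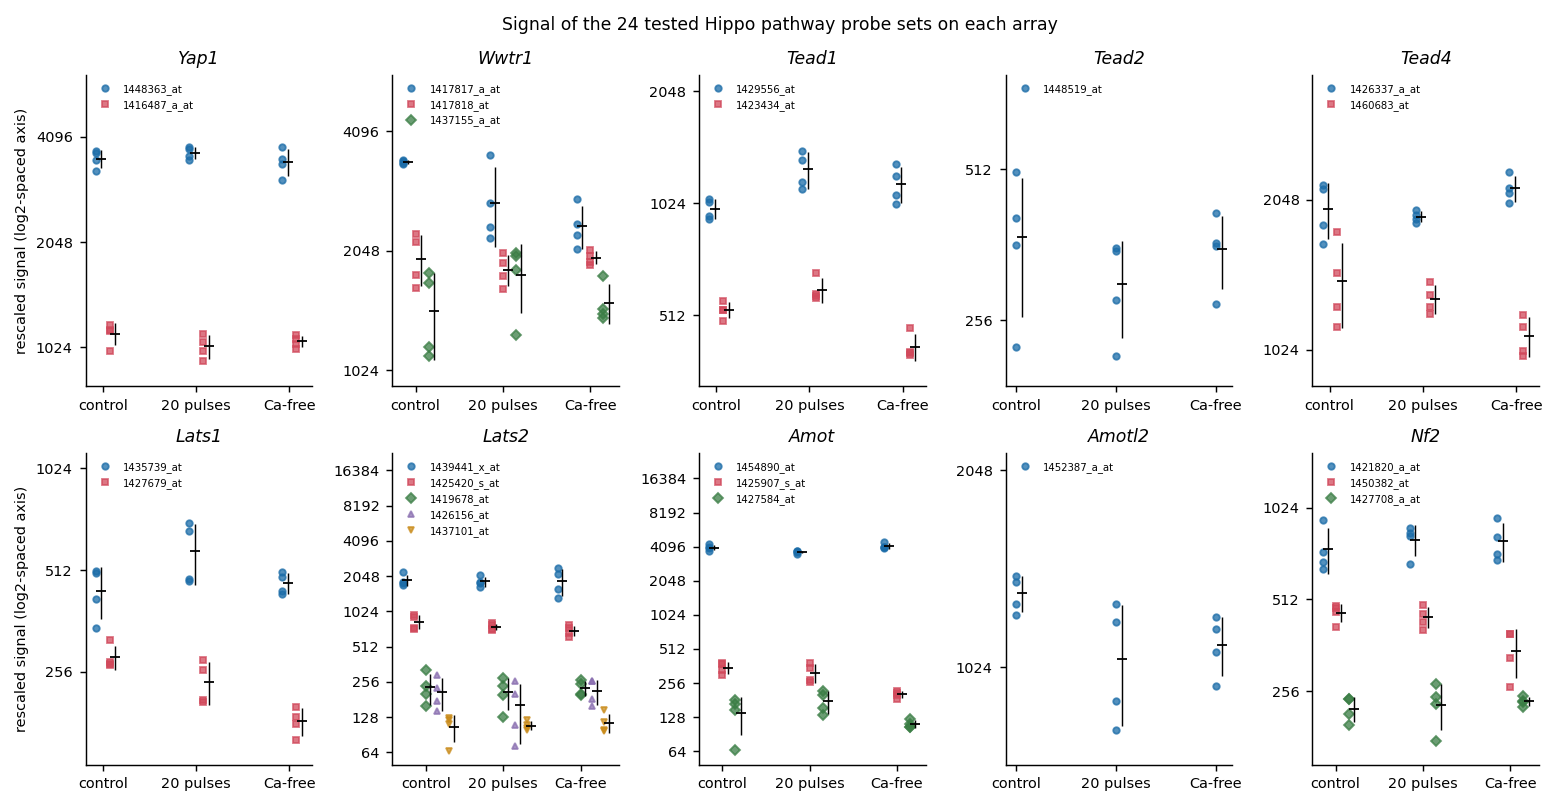
Rescaled signal (log2-spaced axis) of the 24 tested probe sets of the 10 genes on each array, by group, with 1 colour and symbol per probe set. Black marks are the mean ± SD of 4 arrays. Ca-free arrays lie below all control arrays for Amot 1425907_s_at (184 to 220 against 304 to 389) and Lats1 1427679_at (161 to 202 against 268 to 318), while other probe sets of both genes overlap between these groups.

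**Figure D2:**
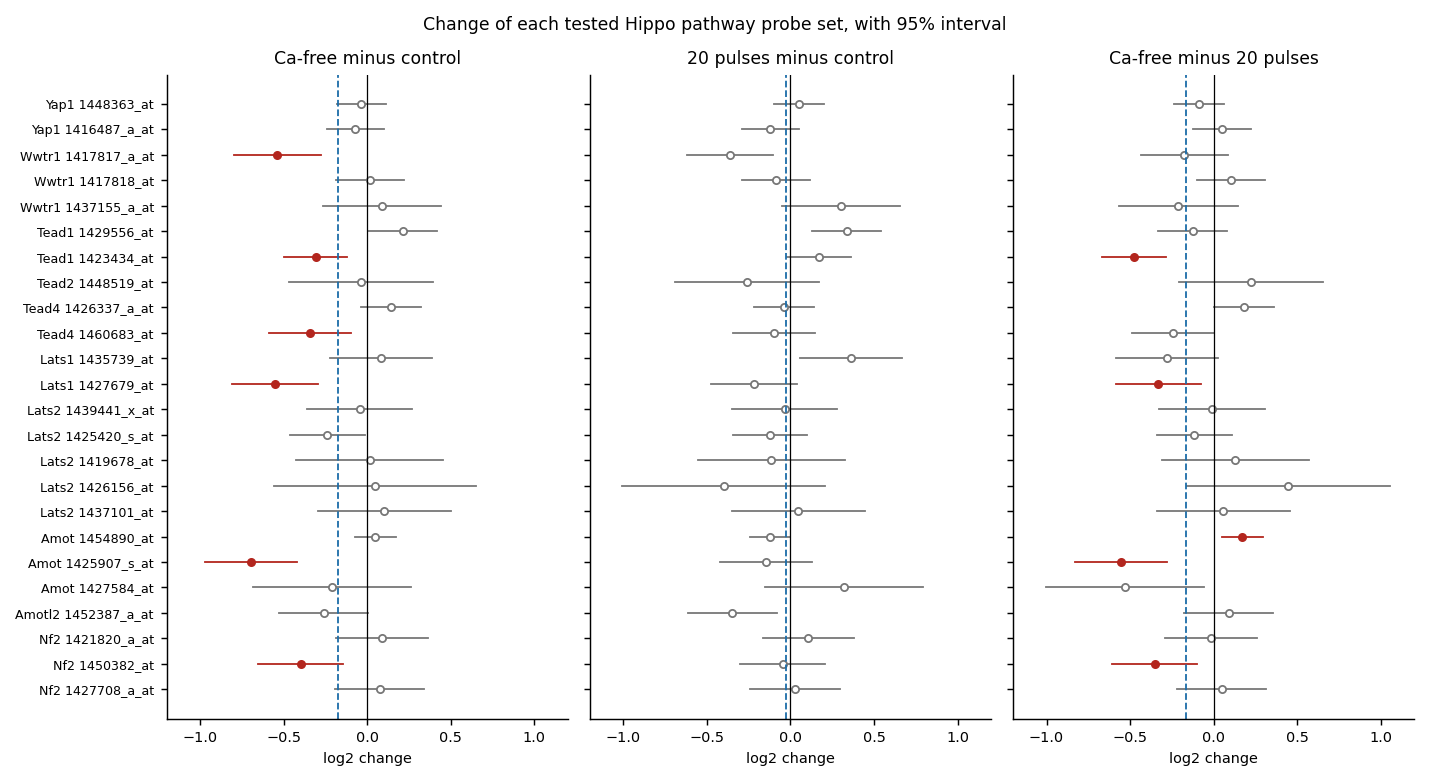
Log2 change of each tested probe set with its 95% interval from limma, for Ca-free medium against control, 20 pulses against control and Ca-free medium against 20 pulses. Red points passed adjusted p under 0.05 (6, 0 and 5 of 24), and the dashed blue line is the median change of all 27808 probe sets (-0.18, -0.03 and -0.17). The signs hold for the trimmed-mean scale, and some flip under others: the plot of 4 scalings shows this for Ca-free medium against control, and against 20 pulses Amot 1454890_at turned to -0.20 after scaling to the hybridization controls.

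Among the coactivators, Yap1 did not pass in any comparison on the trimmed-mean scale. Its brighter probe set, 1448363_at, read 3730, 3270, 3530 and 3680 on controls 1 to 4, 3840, 3780, 3610 and 3510 after 20 pulses, and 3080, 3840, 3540 and 3430 in Ca-free medium. All 3 groups overlapped. The log2 change was -0.03 (95% interval -0.18 to 0.11) in Ca-free medium and 0.05 (-0.10 to 0.20) after 20 pulses. The dimmer Yap1 probe set, 1416487_a_at, spanned 1000 to 1190 in controls, 934 to 1120 after 20 pulses and 1010 to 1110 in Ca-free medium, with a change of -0.07 (-0.24 to 0.10) in Ca-free medium. Both intervals exclude a change of 1 log2 unit on this scale. The direction of Yap1 depended on the scaling, since both probe sets were called higher after median scaling (0.37 and 0.33) and lower after scaling to the hybridization controls (-0.24 and -0.27) in the same comparison.

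Wwtr1, which encodes the coactivator TAZ, had a bright probe set that was lower in Ca-free medium. Probe set 1417817_a_at read 3390, 3400, 3470 and 3440 in controls, 2700, 2200, 3570 and 2350 after 20 pulses, and 2240, 2760, 2070 and 2390 in Ca-free medium. All Ca-free arrays lay below all controls, while pulse array 3 lay above every control and the other 3 below. The mean fell from 3426 ± 38.1 (SD, n = 4) to 2365 ± 295 (SD, n = 4), a log2 change of -0.54 (SE 0.12, limma adjusted p = 0.00396). Probe sets this bright were seldom lower: of the 2781 brightest of the tested probe sets (1 of 10 equal sets by signal), 4.28% were called lower, and their median change was 0.12. The call held with controls 1 and 2 alone (-0.52) and with controls 3 and 4 alone (-0.55), and ended after median scaling (-0.13, adjusted p = 0.43).

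After 20 pulses the same Wwtr1 probe set had a mean of 2707 ± 614 (SD, n = 4), a log2 change of -0.36 that did not pass (limma adjusted p = 0.15). Without pulse array 3 the change was -0.50 and passed (adjusted p = 0.0366), so this array decided the call. The 2 other Wwtr1 probe sets did not pass in either treatment. Probe set 1417818_at spanned 1650 to 2250 in controls and 1890 to 2060 in Ca-free medium (log2 change 0.02, limma adjusted p = 0.90), and 1437155_a_at spanned 1110 to 1800 and 1390 to 1770 (0.09, adjusted p = 0.69). In both of these, controls 1 and 2 (2150 and 2250, and 1700 and 1800) lay above controls 3 and 4 (1650 and 1780, and 1110 and 1170), the split also seen in the Actb ratio.

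The TEAD factors carry the DNA-binding part of the complex. Tead4, the family member required for trophectoderm formation in the mouse, had a pair of probe sets that went apart. Probe set 1460683_at read 1250, 1140, 1460 and 1760 in controls, 1320, 1250, 1400 and 1210 after 20 pulses, and 1140, 995, 1200 and 1020 in Ca-free medium. Controls 1 and 2 overlapped the Ca-free arrays, and controls 3 and 4 lay above them. The mean fell from 1404 ± 272 to 1091 ± 98.2 (SD, n = 4 each), with a log2 change of -0.34 (SE 0.11, limma adjusted p = 0.0287), though after median scaling the change was 0.06 and not called. The call ended with controls 1 and 2 alone (-0.14, adjusted p = 0.32) and became larger with controls 3 and 4 alone (-0.55, adjusted p = 0.00685). Leaving out a single array also ended it, be it control 3 (-0.32), control 4 (-0.23) or, in Ca-free medium, array 2 (-0.30) or 4 (-0.31), with limma adjusted p between 0.0660 and 0.0880. Neither Ca-free arrays 1 and 4 alone (-0.35) nor 2 and 3 alone (-0.33) kept the call, nor did a model of the 8 arrays compared (adjusted p = 0.0525).

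The brighter Tead4 probe set, 1426337_a_at, read 1820, 1670, 2150 and 2190 on control arrays, then 2160, 2110, 2020 and 2330 on Ca-free arrays, and did not pass (log2 change 0.14, limma adjusted p = 0.18). After 20 pulses it read 1950, 1910, 1840 and 1870, below every Ca-free array, and that difference did not pass either (Ca-free minus 20 pulses 0.18, adjusted p = 0.11). With controls 1 and 2 alone, the Ca-free value was 0.30 higher than control and passed (adjusted p = 0.0153). The Tead4 probe set that fell and the one that did not were thus measured on the same arrays with opposite signs.

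Tead1, a broadly expressed TEAD factor, had a probe set, 1423434_at, at which all 3 groups lay apart. It read 560, 496, 529 and 530 in controls, 666, 585, 577 and 569 after 20 pulses, and 473, 406, 400 and 407 in Ca-free medium. Ca-free arrays were lowest and pulse arrays highest, with no overlap. The mean fell from 529 ± 26.4 in controls to 422 ± 34.4 in Ca-free medium (SD, n = 4 each), a log2 change of -0.31 (SE 0.09, limma adjusted p = 0.0142). Against control, 20 pulses gave 0.17, which did not pass (limma adjusted p = 0.37). Ca-free medium against 20 pulses gave -0.48 (limma adjusted p = 0.00239), and this call ended only after median scaling (-0.12) among 21 alternatives. The Ca-free change against control ended after quantile normalization (-0.16), turned to 0.08 after median scaling, and missed the threshold with either pair of controls alone (-0.31 each, limma adjusted p = 0.0578 and 0.0592). It also missed with Ca-free arrays 1 and 4 alone (-0.25, adjusted p = 0.0820) and passed with Ca-free arrays 2 and 3 alone (-0.37).

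The second Tead1 probe set, 1429556_at, was higher on every pulse array than on any control, with 928, 945, 1030 and 1050 in controls, 1120, 1170, 1420 and 1340 after 20 pulses, and 1080, 1310, 1210 and 1020 in Ca-free medium. Its log2 change after 20 pulses was 0.34 (95% interval 0.13 to 0.54), the smallest adjusted p among the members in that comparison at 0.0973 (limma), which did not pass. It passed after scaling to the hybridization controls (0.50, adjusted p = 0.0108). In Ca-free medium the log2 difference was 0.21 and did not pass (limma adjusted p = 0.0891), opposite in sign to the other probe set of the gene.

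Tead2, the TEAD factor known for early embryonic expression, had a single dim and variable probe set, 1448519_at. It read 227, 361, 409 and 505 in controls, 217, 281, 357 and 352 after 20 pulses, and 360, 276, 365 and 419 in Ca-free medium, and all groups overlapped. The log2 change was -0.04 (95% interval -0.47 to 0.39) in Ca-free medium and -0.26 (-0.69 to 0.17) after 20 pulses, so a moderate change in either direction was not detectable with 4 arrays a group.

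Of the kinases that phosphorylate YAP1 and TAZ, Lats1 had a dim probe set that was lower in Ca-free medium. Probe set 1427679_at read 268, 318, 274 and 271 in controls, 259, 278, 209 and 211 after 20 pulses, and 180, 188, 202 and 161 in Ca-free medium. Every Ca-free array lay below every array of both other groups. The mean fell from 283 ± 23.6 in controls to 183 ± 17.3 in Ca-free medium (SD, n = 4 each), a log2 change of -0.55 (SE 0.12, limma adjusted p = 0.00317), and from 239 ± 34.8 after 20 pulses, a change of -0.33 (adjusted p = 0.0463). At this signal, lower calls were common: 46% of the probe sets in the same set of 2781 by signal were lower in Ca-free medium, and their median change was -0.37. The call against control held with each pair of controls (-0.60 and -0.51) and ended after quantile normalization (-0.23) and median scaling (-0.19).

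The call against 20 pulses was less stable. It ended without pulse array 1 (-0.29) or 2 (-0.26), or without Ca-free array 1 (-0.33), 2 (-0.34) or 4 (-0.28), and after quantile normalization (-0.04) and median scaling (-0.004). With Ca-free arrays 2 and 3 alone it ended as well (-0.25). The brighter Lats1 probe set, 1435739_at, did not pass in any comparison. It read 510, 346, 503 and 420 in controls, 667, 474, 705 and 483 after 20 pulses, and 487, 436, 504 and 445 in Ca-free medium. Its log2 change was 0.08 in Ca-free medium (limma adjusted p = 0.67) and 0.36 after 20 pulses (95% interval 0.05 to 0.66, adjusted p = 0.23).

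Lats2, the second LATS kinase and a known YAP target gene, had 5 tested probe sets and none passed in any comparison. In Ca-free medium their log2 changes ran from -0.24 (1425420_s_at, limma adjusted p = 0.0823) to 0.10 (1437101_at, adjusted p = 0.69). Probe set 1425420_s_at read 956, 906, 738 and 729 in controls, 726, 781, 712 and 810 after 20 pulses, and 732, 612, 779 and 670 in Ca-free medium. Again controls 1 and 2 lay above controls 3 and 4, and against the first pair alone the Ca-free change was -0.40 and passed (limma adjusted p = 0.0166). Without control 4 it was -0.30 and also passed (adjusted p = 0.0485). The brightest, 1439441_x_at, spanned 1730 to 2200 in controls, 1650 to 2080 after 20 pulses and 1330 to 2410 in Ca-free medium. Its Ca-free arrays 1 to 4 read 1600, 2130, 2410 and 1330. With Ca-free arrays 1 and 4 alone the change against control was -0.36 and passed (limma adjusted p = 0.0296). With Ca-free arrays 2 and 3 alone it was 0.27 and did not pass (adjusted p = 0.08). By Affymetrix naming, probe sets ending in _s_at or _x_at can match transcripts of other genes, so the values of these 2 Lats2 probe sets and of Amot 1425907_s_at are uncertain in that respect. The dimmest 3 had signals of 65.9 to 320 over all arrays, and for 1426156_at after 20 pulses the 95% interval ran from -1.01 to 0.21, which does not exclude a fall of 1 log2 unit.

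Among the proteins that act above LATS, Amot gave the largest member change in Ca-free medium at 1 probe set, while another differed from control by 0.05 without passing. Angiomotin binds junctions and F-actin, and in inner cells helps activate LATS. Probe set 1425907_s_at read 389, 379, 304 and 331 in controls, 384, 349, 272 and 262 after 20 pulses, and 184, 209, 220 and 202 in Ca-free medium. Every Ca-free array lay below every array of both other groups. The mean fell from 351 ± 40.3 in controls to 204 ± 15.4 in Ca-free medium (SD, n = 4 each), 0.617 times the control on the scale of signal plus 32, with a log2 change of -0.70 (SE 0.13, limma adjusted p = 0.00133). Against 20 pulses (317 ± 59.3) the change was -0.55 (limma adjusted p = 0.00672), a call that ended after quantile normalization (-0.28) and median scaling (-0.22). The call against control was kept in all 22 alternatives, with changes from -0.87 to -0.33. In its signal set, 46.7% of probe sets were lower, with a median change of -0.34.

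The brightest Amot probe set, 1454890_at, read 3760, 3970, 4290 and 4040 in controls, 3750, 3560, 3730 and 3700 after 20 pulses, and 3990, 4470, 4050 and 4110 in Ca-free medium. Pulse arrays lay below all arrays of both other groups. The change in Ca-free medium against control was 0.05 (95% interval -0.07 to 0.17), and after 20 pulses -0.12, which did not pass (limma adjusted p = 0.31). Ca-free medium against 20 pulses gave 0.17 (SE 0.06, limma adjusted p = 0.0327), the only higher call among the members on this scale, and this became 0.02 (adjusted p = 0.80) after quantile normalization and turned to -0.20 after scaling to the hybridization controls. With the replicate block it missed the threshold (limma adjusted p = 0.0521), as it did when any 1 pulse array, Ca-free array 2 or Ca-free array 4 was left out (0.14 to 0.18, adjusted p between 0.0524 and 0.0952). Ca-free arrays 1 and 4 alone did not keep it either (0.14).

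The third Amot probe set, 1427584_at, was dim, with 166, 180, 149 and 66.1 in controls, 135, 201, 153 and 220 after 20 pulses, and 123, 104, 105 and 111 in Ca-free medium. Ca-free arrays lay below all pulse arrays, but the change of -0.53 did not pass (limma adjusted p = 0.0770). Against control it was -0.21 and did not pass (limma adjusted p = 0.46), and it passed at -0.46 without control 4 (adjusted p = 0.0442), the array that read 66.1.

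Amotl2, an angiomotin relative and a known YAP target, had a single probe set, 1452387_a_at, lower on average in both treatments without passing in either. It read 1410, 1380, 1230 and 1280 in controls, 821, 1200, 1280 and 910 after 20 pulses, and 1220, 1170, 1080 and 957 in Ca-free medium. All Ca-free arrays lay below all controls, while pulse arrays overlapped them. The log2 change was -0.26 in Ca-free medium (95% interval -0.53 to 0.01, limma adjusted p = 0.11) and -0.35 after 20 pulses (-0.61 to -0.08, adjusted p = 0.18). The Ca-free change passed in a model of the 8 arrays compared (adjusted p = 0.0440) and after scaling to the hybridization controls (-0.46), and turned to 0.14, not called, after median scaling.

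Nf2 encodes merlin, a scaffold at the cell cortex that recruits LATS. Its probe set 1450382_at read 481, 467, 486 and 416 in controls, 490, 460, 433 and 408 after 20 pulses, and 330, 396, 396 and 265 in Ca-free medium. Every Ca-free array lay below every array of both other groups, with the pulse arrays overlapping the controls. The mean fell from 463 ± 32.05 to 347 ± 62.8 (SD, n = 4 each), a log2 change of -0.40 against control (SE 0.12, limma adjusted p = 0.0168), and the change against 20 pulses was -0.35 (adjusted p = 0.0351). In its signal set, 39.6% were lower, with a median of -0.24. The call against control ended without Ca-free array 4 (-0.29, adjusted p = 0.0507), with controls 3 and 4 alone (-0.36), after quantile normalization (-0.20) and after median scaling (-0.02). With Ca-free arrays 2 and 3 alone it also ended (-0.21, limma adjusted p = 0.16), while with Ca-free arrays 1 and 4 alone it held (-0.59). Against 20 pulses, too, the call ended with Ca-free arrays 2 and 3 alone (-0.16). Against 20 pulses it ended without pulse array 1 (-0.31), 2 (-0.34) or 3 (-0.37) and without Ca-free array 1 (-0.34) or 4 (-0.24), and after quantile normalization (-0.16) and median scaling (-0.005).

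The other tested Nf2 probe sets did not pass. The brightest, 1421820_a_at, spanned 643 to 931 in controls, 667 to 876 after 20 pulses and 690 to 949 in Ca-free medium (log2 change 0.09 in Ca-free medium, limma adjusted p = 0.60). Probe set 1427708_a_at spanned 199 to 242, 176 to 271 and 228 to 248, with a change of 0.07 (limma adjusted p = 0.66) that passed after quantile normalization (0.38, adjusted p = 0.0304) and median scaling (0.44).

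**Figure D3:**
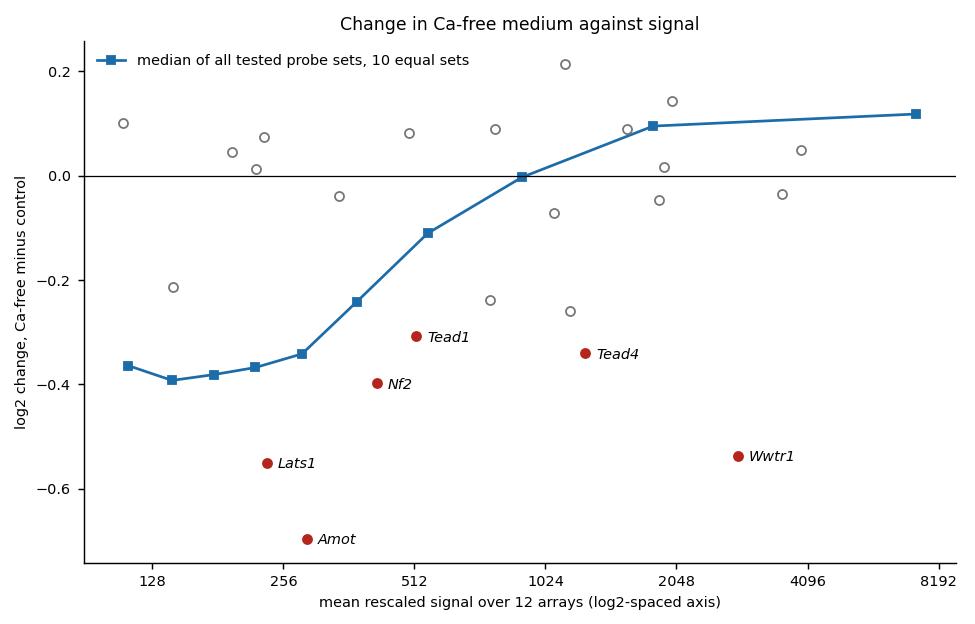
Log2 change in Ca-free medium against control (vertical axis) by mean rescaled signal over 12 arrays (log2-spaced axis) for the 24 tested member probe sets. Red points passed and carry the gene's name, and blue squares are medians of all tested probe sets in 10 equal sets by signal, from -0.39 in a dim set to 0.12 in the brightest. All 6 red points lie below the median of their signal set on this scale, and Tead1 and Tead4 lie above 0 after median scaling.

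**Figure D4:**
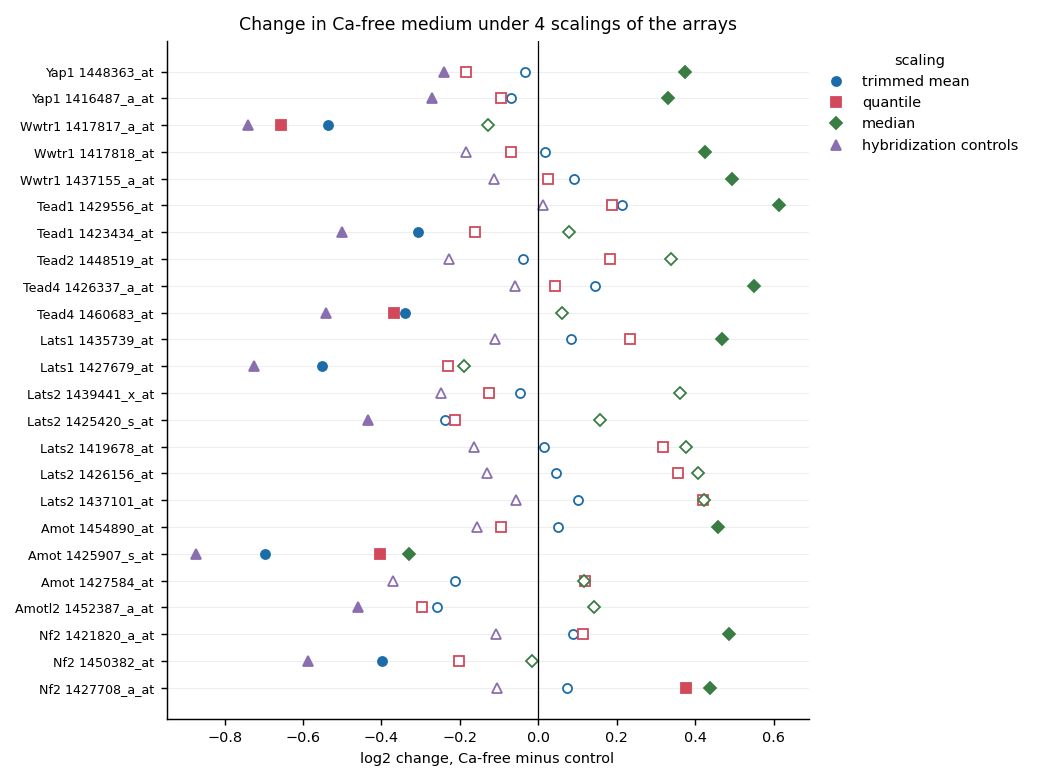
Log2 change in Ca-free medium against control for each tested member probe set under 4 scalings of the arrays, with filled symbols where limma adjusted p was under 0.05. After median scaling 10 probe sets were higher and 1 lower, and after scaling to the hybridization controls 0 were higher and 10 lower. Amot 1425907_s_at is filled and below 0 under all 4.

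To compare probe sets of a gene on the same array, the log2 ratio of each to the brightest probe set of that gene was taken (14 ratios, 7 genes, chosen after the values had been seen). Scaling an array by 1 factor hardly moves such a ratio, but quantile normalization can. Between Ca-free and control arrays, 5 ratios did not overlap: Wwtr1 1417818_at to 1417817_a_at (0.55 higher in Ca-free medium), Tead1 1423434_at to 1429556_at (-0.52), Tead4 1460683_at to 1426337_a_at (-0.48), Lats1 1427679_at to 1435739_at (-0.63) and Amot 1425907_s_at to 1454890_at (-0.75). Each had exact two-sided permutation p = 0.0286, the smallest 4 against 4 arrays allow, and Benjamini-Hochberg adjusted p = 0.0801 over the 14, which does not pass. For Nf2 1450382_at to 1421820_a_at the difference was -0.49 (exact permutation p = 0.0571, adjusted p = 0.11). After quantile normalization, an alternative also chosen after seeing the data, the Amot difference was -0.31 and its groups overlapped (exact permutation p = 0.0571), while Wwtr1 1417818_at (0.59), Tead1 (-0.35), Tead4 (-0.41) and Lats1 (-0.47) kept exact p = 0.0286. Such a ratio shows unequal change of the probe sets and not which of them changed.

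After 20 pulses 1 ratio did not overlap with control, Wwtr1 1437155_a_at to 1417817_a_at (0.66, exact permutation p = 0.0286, adjusted p = 0.40). Between Ca-free medium and 20 pulses 3 ratios did not overlap, for Tead4 1460683_at (-0.43), Amot 1425907_s_at (-0.72) and Amot 1427584_at (-0.70), each with exact permutation p = 0.0286 and adjusted p = 0.13. After quantile normalization these were -0.35 (exact permutation p = 0.0286), -0.31 (p = 0.0571) and -0.25 (p = 0.314). In Ca-free medium against control, the lower call was at the dimmer probe set of the pair for Tead1, Tead4, Lats1 and Amot, and at the brightest for Wwtr1. Each ratio is taken to the brightest probe set, so the direction of these ratios largely follows from where the call lay and is no separate result.

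**Figure D5:**
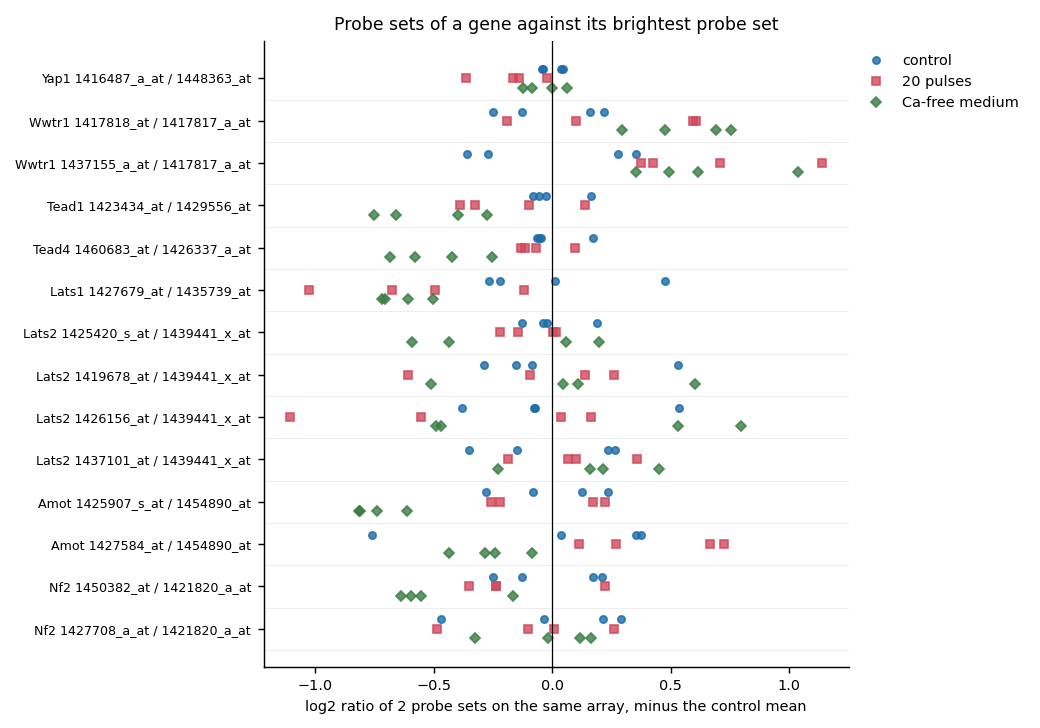
Log2 ratio of each tested probe set to the brightest probe set of its gene on the same array, minus the mean of the control arrays, for 14 ratios, with 1 symbol per array. Ca-free arrays lie apart from all controls for Wwtr1 1417818_at, Tead1, Tead4, Lats1 and Amot 1425907_s_at on the trimmed-mean scale, and those of Amot overlap after quantile normalization.

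After 20 pulses no member was called. Of the 24 tested probe sets 0 passed, compared with 1.48% of all tested probe sets (limma, adjusted p under 0.05), and 5 had an unadjusted p under 0.05, beside 15.8% of all. These 5 were Tead1 1429556_at and Lats1 1435739_at, with higher values, and Wwtr1 1417817_a_at, Amotl2 1452387_a_at and Amot 1454890_at, with lower ones. Arrays of both groups did not overlap for 3 members (12.5%, beside 11% of all), higher for both Tead1 probe sets and lower for Amot 1454890_at. The median change of the members was -0.07 and of all probe sets -0.03, and after scaling to the hybridization controls these were 0.09 and 0.12, with 7.62% of all probe sets higher and 0.129% lower.

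Between Ca-free medium and 20 pulses, 1 member probe set was higher and 4 were lower, the higher being Amot 1454890_at and the lower Tead1 1423434_at, Lats1 1427679_at, Amot 1425907_s_at and Nf2 1450382_at. These were 4.17% and 16.7% of the 24, beside 9.22% of all probe sets higher and 23.4% lower (limma, adjusted p under 0.05). All 4 lower probe sets were also lower against control, a comparison that shares the Ca-free arrays. Non-overlapping arrays were seen for 8 members (33.3%, beside 31.5% of all), 6 lower and 2 higher. Under the other scalings the split of all probe sets was 5.06% higher and 4.96% lower (quantile), 31.5% and 3.54% (median) and 0.338% and 70.9% (hybridization controls), with medians of -0.01, 0.17 and -0.49. Wwtr1 1417817_a_at did not pass between these groups (-0.18, limma adjusted p = 0.28), although it did after scaling to the hybridization controls (-0.54, adjusted p = 0.00189). Yap1 1448363_at did not pass either (-0.09, limma adjusted p = 0.34) but did under each other scaling, with a sign that depended on it: -0.23 (adjusted p = 0.0457) after quantile normalization, 0.29 (0.00996) after median scaling and -0.45 (0.000495) after scaling to the hybridization controls.

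Other genes of the pathway were followed in 5 lists, each gene read at its brightest tested probe set. Those of Rassf1, Rhoa, Tfap2c, Prkci, Crb3 and Ywhaq end in _s_at, and those of Fbxw11 and Ctnna1 in _x_at, as does that of the marker Sox17. Their values may thus also include transcripts of other genes. Over all 13599 genes so measured, 12.3% were higher and 28.8% lower in Ca-free medium, with a median log2 change of -0.13. Among Hippo kinases and their regulators, 6 of 31 tested genes were higher and 4 lower, with a median of 0.01. Rassf1, a scaffold that binds the MST kinases, fell by 0.48 on the log2 scale (limma adjusted p = 0.00124). Mob1a, the LATS coactivator, rose by 0.36 (adjusted p = 0.00167), and Fbxw11, an F-box protein of the ubiquitin ligase that degrades YAP1, rose by 0.25 (adjusted p = 0.00206). Both rises ended after scaling to the hybridization controls, and the fall of Rassf1 after median scaling.

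Among polarity and junction proteins, 3 of 22 tested genes were higher and 1 lower in Ca-free medium, with a median of 0.01. The lower one was Amotl1, the third angiomotin family gene, whose mean signal was 360 in controls and 182 in Ca-free medium (log2 change -0.88, limma adjusted p = 0.00158), kept in all 23 alternatives. Rhoa (0.22, limma adjusted p = 0.00153) and Rock1 (0.53, adjusted p = 0.00964), which act on the actin cytoskeleton, were higher, and both calls ended after scaling to the hybridization controls, that of Rock1 also after quantile normalization. Partners of YAP1, TAZ and TEAD gave 1 higher and 4 lower of 17, with a median of -0.02. The TEAD cofactors Vgll4 (-0.72, limma adjusted p = 0.000563) and Vgll2 (-0.77, adjusted p = 0.000965), of which VGLL4 competes with YAP1 for TEAD, were lower in all 23 alternatives, and the 14-3-3 gene Ywhab was higher (0.29, adjusted p = 0.00236) except after scaling to the hybridization controls.

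General YAP and TAZ target genes had 1 higher and 6 lower of 16 in Ca-free medium, with a median of -0.25. Fjx1 fell by 1.5 on the log2 scale (277 to 80.3, limma adjusted p = 0.000445) and Nuak2 by 0.72 (351 to 199, adjusted p = 0.000908), both in all 22 alternatives. Birc5, which encodes survivin, rose by 0.28 (limma adjusted p = 0.00173) except after scaling to the hybridization controls. Ptpn14 and Ajuba stand in this list and in that of kinase regulators. Fjx1 and Nuak2 are dim, in a signal range where 41.6% and 46.7% of probe sets were lower, and whether these falls relate to YAP or TAZ was not tested.

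The blastocyst genes known to lie downstream of TEAD4 and YAP1 gave 1 higher and 1 lower of 8 in Ca-free medium. Eomes, a trophectoderm transcription factor, fell by 0.70 (3725 to 2284, limma adjusted p = 0.000545) in all 23 alternatives. Cdx2 rose by 0.28 (4123 to 4981, limma adjusted p = 0.0199), a call that ended with controls 1 and 2 alone (0.11), after quantile normalization (0.13) and after scaling to the hybridization controls (0.07). Leaving out control 3 (0.23), control 4 (0.21) or Ca-free array 2 (0.22) ended it too. Gata3 (0.18, limma adjusted p = 0.19), Sox2 (-0.07, adjusted p = 0.66) and Krt18 (-0.11, adjusted p = 0.0789) did not pass.

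After 20 pulses a single gene of these lists was called, Mob1a, higher by 0.30 (limma adjusted p = 0.0487), while over all 13599 genes 0.750% were higher and 0.331% lower. The call held in 6 of 21 alternatives and ended without any 1 pulse array or control 2, 3 or 4 (0.25 to 0.31). The other genes with the smallest p in each list did not pass. In the kinase list these were Csnk1e (-0.34, limma adjusted p = 0.0827) and Taok1 (0.30, adjusted p = 0.0892). Prkci, the atypical protein kinase C of apical polarity (0.23, limma adjusted p = 0.0568), Fat1 (0.30) and Crb3 (-0.27) led the polarity list. Wbp2 (-0.44), Ywhae (-0.16) and Ywhaq (-0.16) led the partners, and Arhgef17 (-0.41), Nuak2 (-0.30) and Asap1 (0.20) the targets. Elf5, a trophoblast factor, had a mean of 124 in controls and 263 after 20 pulses (log2 change 0.87, limma adjusted p = 0.0973). Cdx2 (0.22), Tfap2c (-0.15), Sox2 (0.14), Gata3 (-0.11) and Eomes (-0.07) did not pass.

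Between Ca-free medium and 20 pulses the lists gave 5 higher and 4 lower of 31 kinase genes, 2 and 1 of 22 polarity genes, 5 and 3 of 17 partners, 1 and 4 of 16 targets and 2 and 2 of 8 blastocyst genes, beside 11.2% higher and 21% lower of all genes. Lower in Ca-free medium were Rassf1 (-0.57), Nedd4 (-0.48), Amotl1 (-0.91), Vgll4 (-0.79), Vgll2 (-0.55), Asap1 (-0.80), Fjx1 (-1.16), Eomes (-0.62) and Elf5 (-0.94), with limma adjusted p from 0.000738 to 0.0120. Of these, Vgll4, Amotl1, Asap1 and Fjx1 were lower in all alternatives run. Higher were Rhoa (0.35), Ywhab (0.37), Birc5 (0.30), Fbxw11 (0.20), Tfap2c (0.21), Gata3 (0.29) and Ctnna1 (0.13), with limma adjusted p from 0.000459 to 0.04996. All of these higher calls ended after scaling to the hybridization controls, where the sign turned for each of them except Ywhab (0.004). Those of Birc5, Fbxw11, Tfap2c, Gata3 and Ctnna1 also ended after quantile normalization. The call of Ctnna1 held in 4 of 21 alternatives and in 0 of 8 fits without 1 array, and that of Gata3 in 10 of 21 and 4 of 8. Cdx2 (0.05, limma adjusted p = 0.65) and Sox2 (-0.21, adjusted p = 0.19) did not pass.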

How the data were processed

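Total RNA of mouse blastocysts was purified with a PicoPure kit and labelled by a small-sample Affymetrix assay, per the labels' protocols. Values were made with MAS5 (version not given), per the submitters' processing notes, and the authors deposited them as linear intensity, with every array at the same 2% trimmed mean of 150.001. Arrays were brought to a trimmed mean of 500, 32 was added and log2 taken, so log2 changes understate changes of dim probe sets. Probe sets whose signal averaged 100 or more on the 12 arrays were tested (27808 of 45037) with limma 3.58.1 in R 4.3.3 (lmFit, eBayes with an intensity trend, 3 groups in a single model, Benjamini-Hochberg adjustment over all of them). The procedure was also run on simulated data with independent noise for each probe set. Those data held no array-wide shift and no split among controls, so they do not test the procedure under either. Array controls and within-gene ratios were compared by exact permutation tests. Genes come from the platform's annotation, which pairs 34958 probe sets with 1 gene, 932 with several and the rest with none. All member probe sets are named, plus the 3 genes of smallest p in each of 5 lists and Cdx2, Gata3, Eomes and Sox2. The members and lists were chosen with earlier results of these data known. Alternatives were 3 other scalings, added values of 1 and 100, no filter, a minimum of 300, no intensity trend, a model of the 8 arrays compared, a replicate block, a threshold of 0.01, each array left out in turn, and pairs of control or Ca-free arrays. Some listed genes are not reported here. The number of arrays limits the precision.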

Additional observations from a re-analysis of the deposited data

Results flagged for a closer look

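In 6 of the 78 groups of 4 arrays examined for the 26 member probe sets, 1 array lay far from the other 3, by Dixon's 95% critical value for the gap as a share of the range. Chance gives this in about 1 in 20 groups. Wwtr1 1437155_a_at read 1770 on Ca-free array 3 and 1390 to 1460 on the others. Tead1 1423434_at read 666 on pulse array 1, with 569 to 585 on the others, and 473 on Ca-free array 1, with 400 to 407 on the others. Lats1 1427679_at read 318 on control 2 and 268 to 274 on the other controls. The untested, dim Lats2 probe set 1419679_at read 41.5 on control 3, with 11 to 15.2 on the other controls, and 19.3 on Ca-free array 1, with 5.09 to 5.43 on the others. Leaving out any of the tested arrays named here kept the lower calls of Tead1 1423434_at and Lats1 1427679_at in Ca-free medium against control.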

How the results depend on the processing

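For Ca-free medium against control, where 0 members were higher and 6 lower, quantile normalization gave 1 and 3, median scaling 10 and 1, scaling to the hybridization controls 0 and 10, and a threshold of 0.01 gave 0 and 3. Controls 1 and 2 alone gave 1 higher, as did Ca-free arrays 2 and 3 alone. Leaving out 1 array gave 4 to 7 lower and 0 higher. Sign turns are named here just where the change was called on the main scale or on the other, and uncalled changes turned as well. After median scaling signs turned so for Yap1 1416487_a_at (0.33), Yap1 1448363_at (0.37), Tead1 1423434_at (0.079), Tead4 1460683_at (0.062) and Krt18 (0.30). For 20 pulses against control (0 and 0), scaling to the hybridization controls gave 1 higher and leaving out 1 array gave 0 to 1 lower. For Ca-free medium against 20 pulses (1 and 4), quantile normalization gave 0 and 2, median scaling 8 and 0, scaling to the hybridization controls 0 and 17, and a threshold of 0.01 gave 0 and 2. There, no filter and a minimum of 300 each gave 2 lower, no intensity trend and Ca-free arrays 1 and 4 alone each gave 0 higher, Ca-free arrays 2 and 3 alone gave 2 lower, and leaving out 1 array gave 0 to 1 higher and 2 to 4 lower. In that comparison, by the same rule, signs turned after scaling to the hybridization controls for Yap1 1416487_a_at (-0.31), Wwtr1 1417818_at (-0.26), Amot 1454890_at (-0.20), Cdx2 (-0.31), Birc5 (-0.063), Tfap2c (-0.16), Fbxw11 (-0.17), Rhoa (-0.022), Ctnna1 (-0.24) and Gata3 (-0.076), after median scaling for Yap1 1448363_at (0.29), and after quantile normalization for Ctnna1 (-0.066). The cause was not tested. Of the member values recomputed, 498 of 545, 495 of 497 and 439 of 497 in the 3 comparisons kept their side of the threshold without a called sign turning, although 59, 33 and 31 uncalled values changed sign.

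With a replicate block, as in a paired analysis, the counts were 0 higher and 6 lower, 0 and 0, and 0 and 4, so that the call of Amot 1454890_at ended. Residuals of arrays of the same number in different groups had a mean correlation of 0.0156 (-0.06 to 0.10), against -0.005 for other numbers. For 7 of 12 arrays the highest correlation fell on the same number. The mean was thus slightly higher for shared numbers, and the count was not compared with chance. These values do not decide whether the numbers pair the samples. The main model did not use the numbers, and whether they mark a shared origin is not known. Dim probe sets, such as those of Lats2 and Tead2, had the widest intervals.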

Other observations

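Controls 1 and 2 were separated from controls 3 and 4, with no overlap, for 17 of the 24 tested Hippo pathway probe sets (70.8%), compared with 49.6% of all tested probe sets. In 9 of them the first pair was higher, among them Wwtr1 1417818_at and 1437155_a_at, 3 Lats2 probe sets, Amot 1425907_s_at and Amotl2. In 8 it was lower, among them both Tead4 probe sets, Tead2, Wwtr1 1417817_a_at and Amot 1454890_at. Ca-free arrays 1 and 4 were separated from arrays 2 and 3 for 12 of the 24 (50%), compared with 50.9% of all. These counts were made after the values had been seen and are given as a description, with no test.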
